A study of Mus musculus with 10 samples.

Results

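The genes described here are 10 members of the YAP and TEAD transcription system: the coactivator genes Yap1 and Wwtr1, the DNA-binding partner genes Tead1 and Tead3, the kinase genes Lats1 and Lats2, the cytoplasmic inhibitor gene Amotl2, and the target genes Ankrd1, Ccn1 (formerly Cyr61) and Ccn2 (formerly Ctgf). They were picked by symbol, through the Ensembl IDs of the count table, and all 10 were found among its 54446 genes and passed the low-count filter that left 15181 genes for testing. Messenger RNA had been sequenced from primary smooth muscle cells (SMCs) of the mouse aorta, freed with collagenase and grown to passage 2. Wild type aortas gave 5 of the 10 libraries (WT), and aortas of KitW/Wv mice, whose 2 Kit copies carry the mutations W and Wv, gave the other 5 (WWv). The labels used here state no sex, age or strain background. The titles number the libraries 1 to 5 in each group and do not say whether each is a separate mouse, so p-values measure the spread between libraries. The design compares transcripts of smooth muscle cells from mice with and without a mutant c-Kit, the receptor to which stem cell factor binds. The mice carry the Kit mutations in every cell, and the cultures were compared after growth outside the animal.

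YAP and its paralogue TAZ, the product of Wwtr1, are coactivators that cannot bind DNA by themselves and reach their targets through TEAD proteins. The Hippo kinases MST and LATS phosphorylate YAP and TAZ, which keeps them in the cytoplasm or leads to their degradation, while actin tension, a stiff matrix and low cell density favour their entry into the nucleus. Most of this control acts on the proteins, so transcript levels of Yap1 or Lats1 do not report the activity of the pathway. In vascular smooth muscle YAP is known from growth, stretch and injury responses, and Ccn1, Ccn2 and Ankrd1 are its most used target genes, although serum response factor and TGF-beta also drive them.

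Totals ranged from 42040255 to 53863661 counts per library. On the first principal component (52.5% of the variance) WT 2 lay at 20.2, within the 11.5 to 33.4 of the WWv libraries, while the other WT libraries lay between −51.1 and −29.1. Kit stood at 3.19 to 4.92 CPM in WT and 0.929 to 3.01 CPM in WWv, with no overlap, in CPM, the TMM-scaled counts relative to library size used throughout. Over all tested genes 12.8% passed the edgeR threshold upward and 15.4% downward. Smooth muscle markers rose in 6 of 8 members, with a summed level of 9955 to 13019 CPM in WT and 16764 to 20150 CPM in WWv. Most of this sum was Acta2 (6256 to 12784 CPM over all libraries). Des (10.6 to 21.7 CPM) and Myocd (1.34 to 4.86 CPM) were far lower. Adventitial fibroblast markers fell in 3 of 7 members (Pdgfra, Dpt and Lum) and rose in 0 (0 at an unadjusted p under 0.05, 0 by DESeq2 and 0 by limma-voom), with sums of 392 to 469 CPM in WT and 230 to 399 CPM in WWv. Endothelial markers passed the threshold in 0 of 6 tested members (0 at an unadjusted p under 0.05, 0 by DESeq2 and 0 by limma-voom) and summed to 52.7 to 309 CPM in WT, where WT 2 was the highest, and to 85.3 to 196 CPM in WWv. Leukocyte markers passed in 0 of 4 tested members by edgeR (2 lower at an unadjusted p under 0.05, 2 lower by DESeq2 and 0 by limma-voom) and summed to 10.7 to 23.5 CPM over the 10 libraries, with the T cell gene Cd3e at 0. The part of these differences in the results below was not tested. In bulk RNA, fewer cells of a type and less RNA per cell cannot be told apart.

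TEAD proteins bind the letters GGAATG, read as CATTCC on the other strand. These letters were searched on both strands in the 250 bases before each RefSeq start site (GRCm38.p6), where 8 of the 10 members matched by symbol and Tead1 and Ccn2 did not. The motif stood before at least 1 start site of 6 of the 8, namely Yap1, Wwtr1, Tead3, Amotl2, Ankrd1 and Ccn1, and was not found in these windows for Lats1 and Lats2. Of 27025 genes with such windows 14.4% had a match, and 12.6% of all windows of this length held one. The 250 bases before the Ccn1 start (chr3:145649986-145650235, minus strand) are shown because this target combines a match, at 103 bases before the start, with the letters TATAAA at 25 bases. TATAAA was found before no other of the 8 members and in 12.4% of all windows. In this and the following sequences, read 5′ to 3′ in the direction of the gene, capitals mark the matches at the distances given.
Ccn1, 250 bases: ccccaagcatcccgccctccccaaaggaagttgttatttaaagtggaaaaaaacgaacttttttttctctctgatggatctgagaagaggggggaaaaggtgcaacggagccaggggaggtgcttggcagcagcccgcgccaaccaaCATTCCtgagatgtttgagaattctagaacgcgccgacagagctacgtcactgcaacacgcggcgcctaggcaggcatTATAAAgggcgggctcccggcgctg

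The next set compares the matches of the other 5 members, each in 30 bases of its surroundings. Ankrd1 held 2 matches on the forward strand, 210 and 123 bases before its RefSeq start. Yap1 and Wwtr1 held 1 each, 141 and 136 bases before the start. Amotl2 held 1 on the reverse strand at 65 bases. Tead3 has several annotated starts. The window of 1 held a forward match at 182 bases, and that of another held a pair of adjacent reverse matches at 123 and 114 bases. The last sequence holds this pair: capitals mark the match at 114 bases and the lower-case cattcc before it is the match at 123 bases. The matches of Ankrd1 and Amotl2 and the Tead3 pair lie before a RefSeq start but inside the GENCODE bounds of the gene given further on, which begin at an earlier start. Those of Yap1, Wwtr1 and Ccn1 and the forward match of Tead3 lie outside the GENCODE bounds. The coordinates, in the order of the sequences, are chr19:36120037-36120066, chr19:36119950-36119979, chr9:8004720-8004749, chr3:57576029-57576058, chr9:102717727-102717756 (plus strand), chr17:28350970-28350999 and chr17:28350697-28350726, the others on the minus strand.
Ankrd1, first match: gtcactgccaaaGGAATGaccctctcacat
Ankrd1, other match: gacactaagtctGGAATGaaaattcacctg
Yap1: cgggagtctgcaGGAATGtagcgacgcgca
Wwtr1: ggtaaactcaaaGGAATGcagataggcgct
Amotl2: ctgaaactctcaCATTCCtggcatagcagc
Tead3, forward match: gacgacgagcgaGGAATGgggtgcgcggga
Tead3, nearer of the pair: gctcattccgtaCATTCCggccatccccct

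The AP-1 letters TGANTCA, in which N is any base, were found in the windows of 0 of the 8 members and in 6.75% of all windows. The CArG box, the site of serum response factor, was found in 0 of the 8 and in 1.47% of all windows. Both sites often lie in distant enhancers, which were not analysed here. No binding was measured in these data, so these are matches of letters.

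In WWv cells 6 of the 10 genes rose (Yap1, Wwtr1, Tead1, Lats1, Ankrd1 and Ccn2), 1 fell (Tead3) and 3 did not pass the threshold (Lats2, Amotl2 and Ccn1). The threshold was an edgeR adjusted p under 0.05. Over all 15181 tested genes 28.2% passed it, with 12.8% upward and 15.4% downward. The median log2 fold change was 0.20 over the 10 genes and −0.01 over all tested genes. In 5 of the 10 (Yap1, Tead1, Lats1, Ankrd1 and Ccn2) every WWv library lay above every WT library, as in 8.03% of all tested genes, and in 0 of the 10 did every WWv library lie below, as in 7.84%. Groups apart in either direction made up 15.9% of all tested genes. Sizes were modest, from 1.13-fold for Lats1 to 1.52-fold for Ankrd1. Without WWv 2 or without WWv 3 the genes that rose numbered 3, and with library size in place of TMM scaling they also numbered 3, when the median change of all genes was −0.09 and 21.5% of all calls were upward, against 45.4% with TMM.

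**Figure D1:**
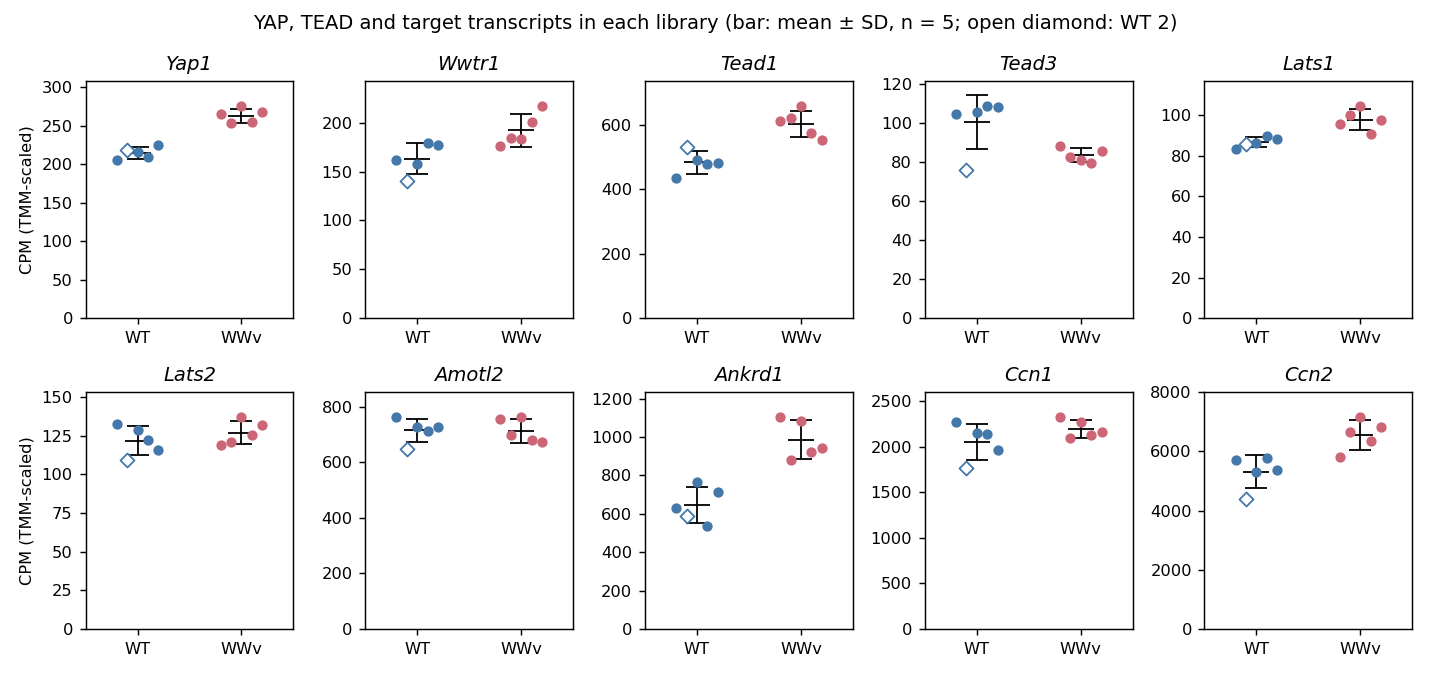
CPM of the 10 genes in each library (vertical axis, starting at 0), with WT in blue and WWv in red, bars for mean ± SD (n = 5) and an open diamond for WT 2. The groups are apart for Yap1, Tead1, Lats1, Ankrd1 and Ccn2, and WT 2 is the lowest of all 10 libraries for Wwtr1, Tead3, Lats2, Amotl2, Ccn1 and Ccn2.

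The coactivator transcripts were both higher in WWv. Yap1 (ENSMUSG00000053110.13, chromosome 9, 7931999 to 8004596, minus strand, mm10) encodes YAP. Its level was 206, 218, 215, 210 and 225 CPM in WT 1 to 5 and 265, 253, 275, 255 and 268 CPM in WWv 1 to 5. The libraries of each group lay close together and the groups were well apart, the lowest WWv library (253 CPM) being above the highest WT library (225 CPM). The mean went from 215 ± 7.47 to 263 ± 9.17 CPM (SD, n = 5 each), 1.22-fold (log2 fold change 0.29 ± 0.04 SE, adjusted p = 0.00132). The call of Yap1 was kept in all 18 alternative fits, with log2 fold changes of 0.21 to 0.31. A noncoding gene on the opposite strand, Gm20416, shares 116 of the 9257 exon bases of Yap1 and stood at 0.0209 to 0.241 CPM.

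Wwtr1 (ENSMUSG00000027803.14, chromosome 3, 57455649 to 57575910, minus strand) encodes TAZ. It stood at 162, 141, 158, 179 and 177 CPM in WT and at 176, 184, 183, 201 and 217 CPM in WWv. The groups touched, since WWv 1 lay below WT 4 and WT 5, and the other 4 WWv libraries lay above all of WT. The rise was 1.18-fold, from 163 ± 15.7 to 192 ± 16.5 CPM (n = 5 each; log2 fold change 0.23 ± 0.08, adjusted p = 0.0456). This call lay close to the threshold and was lost in 9 of the 18 alternatives. Leaving out WT 1 (log2 fold change 0.23), WT 3 (0.22), WWv 2 (0.25), WWv 3 (0.25), WWv 4 (0.21) or WWv 5 (0.18) gave adjusted p values of 0.0611 to 0.0996. With library size only the change was 0.15 (adjusted p = 0.145).

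Set beside each other per kilobase of exon, Wwtr1 was the more abundant of the pair in every library. In CPM Yap1 stood above Wwtr1 in every library, so this order rests on the annotated exon lengths (9257 bases for Yap1 and 4779 for Wwtr1). The length of the transcripts present was not measured. The ratio of Yap1 to Wwtr1 was 0.684 ± 0.0740 in WT and 0.711 ± 0.0657 for WWv (n = 5 each), with overlapping ranges of 0.605 to 0.800 and 0.638 to 0.778. Their sum was 53.0 to 61.3 CPM per kilobase in WT and 65.4 to 74.2 CPM per kilobase in WWv, without overlap. The total of coactivator transcript was thus higher in WWv, while the make-up of the pair lay within the same range.

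Among the TEAD genes Tead1 rose and Tead3 fell. Tead1 (ENSMUSG00000055320.17, chromosome 7, 112679318 to 112906807, plus strand) encodes the TEAD protein best known from heart and muscle, where it binds the MCAT element of contractile genes. It stood at 434, 533, 492, 480 and 483 CPM in WT and at 612, 622, 657, 574 and 553 CPM in WWv. Every WWv library lay above every WT library, and WT 2 was the highest of WT. The mean went from 484 ± 35.2 to 604 ± 41.2 CPM (n = 5 each), 1.25-fold (log2 fold change 0.32 ± 0.07, adjusted p = 0.00641). The call of Tead1 was kept in all 18 alternatives, at 0.23 to 0.36.

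Tead3 (ENSMUSG00000002249.21, chromosome 17, 28331671 to 28350817, minus strand) encodes a TEAD protein first known from placenta. It stood at 104, 75.9, 106, 108 and 108 CPM in WT and at 88.1, 82.8, 81.2, 79.3 and 85.7 CPM in WWv. WT 2 was the lowest of all 10 libraries, whereas the other 4 WT libraries lay above every WWv library. With all libraries the fall was 1.20-fold, from 100.5 ± 13.8 to 83.4 ± 3.52 CPM (n = 5 each; log2 fold change −0.27 ± 0.09, adjusted p = 0.0460). Without WT 2 it was −0.35 (adjusted p = 8.95e-05). Leaving out WT 1 (−0.25), WT 3 (−0.25), WT 4 (−0.24) or WT 5 (−0.24) ended the call, with adjusted p from 0.0958 to 0.102. So did leaving out WWv 2 (−0.27), WWv 3 (−0.26), WWv 4 (−0.26) or WWv 5 (−0.28), with adjusted p from 0.0555 to 0.0877. Tead3 was not called by limma-voom (−0.26, adjusted p = 0.0609).

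Of the other TEAD genes, Tead4 fell from 7.81 ± 0.761 to 6.23 ± 0.432 CPM (n = 5 each; log2 fold change −0.33 ± 0.09, adjusted p = 0.0184), and its groups did not overlap. The call of Tead4 was lost without WT 3 (−0.29, adjusted p = 0.0506) and without WWv 2 (−0.29, adjusted p = 0.0506). Tead2 was at 46.5 ± 5.92 and 41.3 ± 3.04 CPM and did not pass (−0.17 ± 0.08, adjusted p = 0.153). Per kilobase of exon, Tead1 made up 57.0 ± 2.19% of TEAD transcript in WT and 66.1 ± 1.71% of it in WWv (n = 5 each), with ranges of 54.5 to 60.5% and 64.6 to 68.8% that did not overlap. Tead3 made up 24.0 ± 3.74% and 18.5 ± 1.18%, with overlap through WT 2 (17.4%), the other WT libraries being at 24.8 to 26.5%. The Tead2 share was 15.5 ± 1.65% and 12.8 ± 0.967%, and that of Tead4 3.47 ± 0.279% and 2.58 ± 0.249%. The sum of the 4 genes overlapped between the groups, at 58.7 to 64.9 CPM per kilobase in WT and 63.0 to 70.4 CPM per kilobase in WWv. Per kilobase, TEAD transcript in WWv was therefore made up more of Tead1, with a smaller difference in its total. The sizes of these shares rest on the annotated exon lengths, from 3598 bases for Tead4 to 13570 for Tead1. The length of the transcripts present was not measured.

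**Figure D2:**
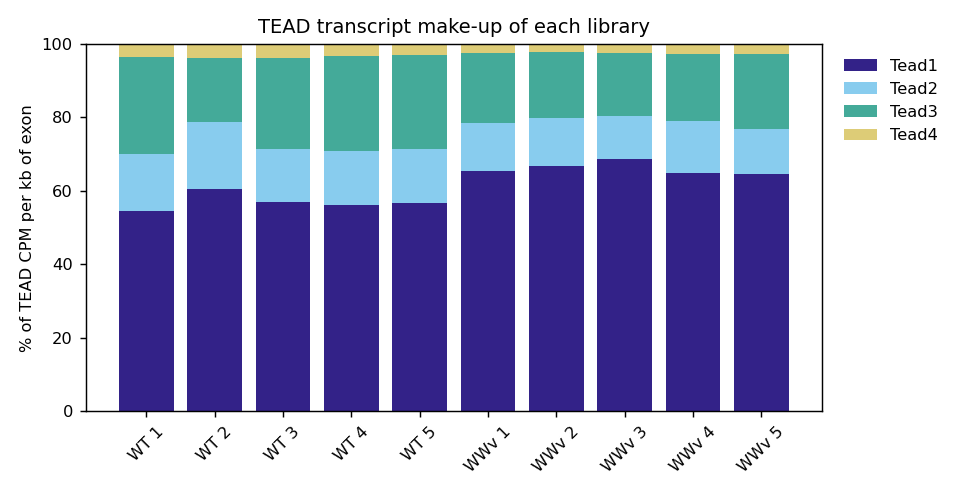
Share of each TEAD gene (percent of the summed CPM per kilobase of exon, vertical axis) in each of the 10 libraries. Tead1 takes 54.5 to 60.5% in WT and 64.6 to 68.8% in WWv, and WT 2 has the smallest Tead3 share of WT at 17.4%.

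The kinase and inhibitor genes changed little. Lats1 (ENSMUSG00000040021.13, chromosome 10, 7681214 to 7716460, plus strand) encodes a LATS kinase that phosphorylates YAP and TAZ directly. It stood at 83.4, 85.9, 86.2, 89.8 and 88.5 CPM in WT and at 95.6, 100.3, 104, 90.7 and 97.9 CPM in WWv. The groups did not overlap, though WWv 4 and WT 4 were less than 1 CPM apart (90.7 and 89.8 CPM). The rise was 1.13-fold, from 86.8 ± 2.49 to 97.8 ± 5.13 CPM (n = 5 each; log2 fold change 0.17 ± 0.05, adjusted p = 0.0177). Without WWv 2 (0.16, adjusted p = 0.0524) and without WWv 3 (0.15, adjusted p = 0.0515) it was not called, and with library size only it was 0.09 (adjusted p = 0.152).

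Lats2 (ENSMUSG00000021959.16, chromosome 14, 57689662 to 57758388, minus strand), the other LATS kinase gene and itself a target of YAP, did not pass. It stood at 133, 109, 129, 122 and 116 CPM in WT and at 119, 121, 137, 125 and 132 CPM in WWv, and the groups overlapped. The log2 fold change was 0.06 ± 0.06 (adjusted p = 0.490, 95% interval −0.08 to 0.20). An annotated protein coding gene on the same strand, Gm49361, shares 2955 of the 6971 exon bases of Lats2 and was at 0 counts in all libraries, and how shared reads were counted is not stated, so the level of Lats2 is uncertain. The ratio of Lats2 to Lats1 per kilobase, 1.47 ± 0.140 in WT and 1.36 ± 0.0761 in WWv, overlapped too.

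Amotl2 (ENSMUSG00000032531.15, chromosome 9, 102716672 to 102733418, plus strand) encodes an angiomotin-like protein that holds YAP in the cytoplasm, and it is a feedback target of YAP. It stood at 763, 650, 727, 714 and 729 CPM in WT and at 755, 698, 762, 679 and 673 CPM in WWv. All WWv libraries lay within the WT range. The log2 fold change was −0.01 ± 0.06 (adjusted p = 0.946), and its 95% interval ran from −0.14 to 0.12, a range that leaves out a change of the size seen in Ankrd1.

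Of the 3 classical targets Ankrd1 and Ccn2 were called higher and Ccn1 was not called. Differences between the targets were not tested. The confidence intervals of the log2 fold change overlapped for Ccn2 (0.11 to 0.50) and Ccn1 (−0.07 to 0.26). That of Ankrd1 (0.38 to 0.84) lay above that of Ccn1 and overlapped that of Ccn2. Ankrd1 (GENCODE M21 ENSMUSG00000024803.9, version 8 in the count table, chromosome 19, 36111961 to 36120099, minus strand) encodes a cardiac and stretch-induced ankyrin repeat protein of nucleus and sarcomere. It stood at 630, 588, 768, 536 and 715 CPM in WT and at 1104, 882, 1086, 921 and 942 CPM in WWv. Every WWv library lay above every WT library, with WT 3 the highest of WT. The mean went from 648 ± 93.9 to 987 ± 101 CPM (n = 5 each), 1.52-fold (log2 fold change 0.61 ± 0.11, adjusted p = 0.00269). Ankrd1 was called in all 18 alternatives, at 0.52 to 0.68.

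Ccn2 (ENSMUSG00000019997.11, chromosome 10, 24595442 to 24598683, plus strand) encodes connective tissue growth factor, a secreted matricellular protein that promotes matrix production. It stood at 5697, 4386, 5307, 5781 and 5368 CPM in WT and at 5823, 6658, 7155, 6341 and 6815 CPM in WWv. The groups did not overlap, but WWv 1 (5823 CPM) was close to WT 4 (5781 CPM), and WT 2 was the lowest of all. The rise was 1.24-fold, from 5308 ± 554 to 6558 ± 505 CPM (n = 5 each; log2 fold change 0.31 ± 0.09, adjusted p = 0.0287). Leaving out WT 3 (0.31), WT 5 (0.31), WWv 2 (0.30), WWv 3 (0.27) or WWv 5 (0.29) gave adjusted p values of 0.0518 to 0.0679, and library size only gave 0.22 (adjusted p = 0.0622). Without WT 2 the change was 0.25 (adjusted p = 0.0164). The noncoding gene Gm15270 shares 665 of the 2861 exon bases of Ccn2 on the opposite strand and stood at 18.3 to 31.5 CPM, so part of the reads cannot be assigned between them.

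Ccn1 (ENSMUSG00000028195.4, chromosome 3, 145646976 to 145649981, minus strand) encodes a matricellular protein that binds integrins and is induced quickly by growth factors. It stood at 2270, 1762, 2149, 2141 and 1963 CPM in WT and at 2325, 2092, 2270, 2134 and 2167 CPM in WWv. The groups overlapped, and WT 2 was the lowest of all 10 libraries. The log2 fold change was 0.10 ± 0.07 (adjusted p = 0.354, 95% interval −0.07 to 0.26), and no alternative brought it past the threshold (0.01 to 0.13). Within libraries, the ratio of Ccn2 to Ccn1 per kilobase was 1.74 to 1.93 in WT and 2.10 to 2.25 in 4 WWv libraries, with WWv 1 at 1.77. The ratio of Ankrd1 to Amotl2 per kilobase was 1.64 to 2.30 in WT and 2.75 to 3.19 in WWv, without overlap, so Ankrd1 and Amotl2 did not move in parallel.

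**Figure D3:**
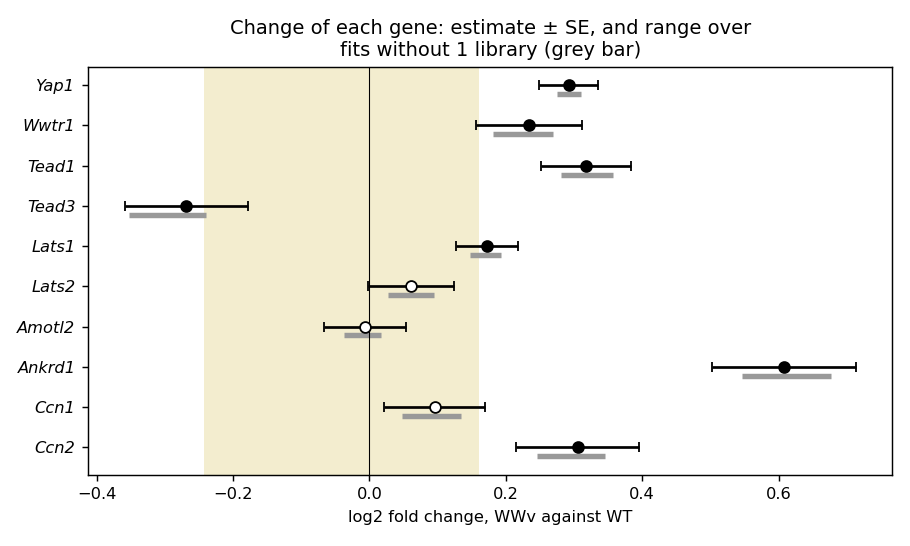
Log2 fold change of each gene, WWv against WT (horizontal axis), as estimate ± SE, filled where the adjusted p is under 0.05, with a grey bar for the range over fits that leave out 1 library and a yellow band for the middle 50% of all tested genes (−0.24 to 0.16). Ankrd1 lies farthest right at 0.61, Tead3 is the 1 gene called lower, and Lats2, Amotl2 and Ccn1 are open.

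Per kilobase of exon the 10 genes spanned a wide range. The order rests on annotated exon lengths. In CPM the WT mean of Amotl2 (717) was above that of Ankrd1 (648). In WT the order was Ccn2 (1855 ± 194 CPM per kilobase), Ccn1 (1019 ± 98.1), Ankrd1 (224 ± 32.5), Amotl2 (114 ± 6.61), Tead1 (35.7 ± 2.59), Wwtr1 (34.2 ± 3.28), Yap1 (23.2 ± 0.807), Lats2 (17.5 ± 1.36), Tead3 (15.0 ± 2.06) and Lats1 (11.9 ± 0.341). Neighbours whose ranges over the WT libraries overlapped were Tead1 with Wwtr1, Lats2 with Tead3, and Tead3 with Lats1. In WWv the order was the same except that Lats1 (13.4 ± 0.703 CPM per kilobase) stood before Tead3 (12.4 ± 0.524), again with overlap. Averaged over the libraries, Ccn2 ranked 9 and Ccn1 ranked 24 among 15175 tested genes with an exon length, Ankrd1 106 and Amotl2 317, and the other 6 ranked between 1008 and 3206. The secreted target products were thus among the most abundant transcripts of these cultures, far above the coactivators and TEADs. The fewest counts behind any value were 3376, for Tead3 in a single library.

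WT 2 moved with several of these genes. It was the lowest of all 10 libraries for 6 of the 10, namely Wwtr1, Tead3, Lats2, Amotl2, Ccn1 and Ccn2, and the highest of WT for Tead1. How often WT 2 was the lowest library among all tested genes was not counted, so this count does not set the 10 genes apart. For Ccn2 WT 2 stood at 4386 CPM, and WT 1, 3, 4 and 5 at 5307 to 5781 CPM. Without WT 2 the same 6 genes rose and 1 fell, with changes of 0.30 for Yap1, 0.19 for Wwtr1, 0.36 for Tead1, 0.17 for Lats1, 0.58 for Ankrd1, 0.25 for Ccn2 and −0.35 for Tead3 on the log2 scale. Over all genes the calls then numbered 7127 in place of 4274.

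The pathway was next read from 4 lists, whose edgeR counts stand beside the 12.8% of all tested genes called higher and the 15.4% called lower. Of all 15181 tested genes DESeq2 called 2293 higher and 2697 lower, and limma-voom 2012 and 2153. The share of all genes at an unadjusted p under 0.05 was not counted. List counts at that level therefore have no such share beside them. The Hippo kinase core and its upstream regulators rose in 9 of 26 genes and fell in 3, with a median log2 fold change of 0.08 beside −0.01 over all tested genes. The share that fell was below that of all tested genes, but it rested on 3 genes and the difference was not tested. At an unadjusted p under 0.05, 10 of the list were higher and 4 lower, and DESeq2 called 10 and 4, limma-voom 9 and 3. Among those that rose were Stk3, an MST kinase (0.24 ± 0.06, adjusted p = 0.0136), and the LATS cofactors Mob1a (0.23 ± 0.04, adjusted p = 0.00257) and Mob1b (0.17 ± 0.04, adjusted p = 0.0155). Stk4 (0.12, adjusted p = 0.0722) and Nf2 (0.005, adjusted p = 0.938) did not pass. Sav1 lay on the lower side and did not pass either (−0.19, adjusted p = 0.0597). Atl1 shares 1336 of the 5265 exon bases of Sav1 on the opposite strand. Wwc2, a relative of the LATS activator KIBRA, rose from 215 ± 8.58 to 281 ± 17.9 CPM (n = 5 each; 0.39 ± 0.05, adjusted p = 0.000904), although Cldn22 overlaps it on the opposite strand. The others that rose were Lats1, Taok3, Rassf1, Wtip and Amotl1. Gm9917 shares 2496 of the 5845 exon bases of Rassf1 on the opposite strand, so the reads of Rassf1 are uncertain. With library size only the risers numbered 3 and the fallers 6, and without WT 2 the fallers numbered 5.

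The 3 that fell included the atypical cadherin pair of planar cell polarity. Dchs1, the Dachsous ligand, stood at 7.76, 9.53, 7.16, 12.2 and 9.33 CPM in WT and at 3.49, 3.07, 4.47, 3.14 and 3.63 CPM in WWv. The groups were far apart, a 2.59-fold fall (−1.37 ± 0.16, adjusted p = 0.000446), the largest change of the list. Fat4, its receptor, went from 67.5 ± 4.97 to 52.4 ± 9.37 CPM (n = 5 each; −0.37 ± 0.12, adjusted p = 0.0356), and the call was lost without WT 1 (−0.38), WT 3 (−0.39), WT 4 (−0.33), WT 5 (−0.39) or WWv 4 (−0.35). Map4k4, a kinase that acts on LATS beside the MST kinases, fell from 913 ± 69.9 to 663 ± 47.6 CPM (−0.46 ± 0.07, adjusted p = 0.00142). Dchs1 and Fat4 overlap noncoding genes on the opposite strand, so their reads are uncertain.

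Of the factors that share TEAD, the vestigial-like cofactors moved in opposite directions. Vgll4, which competes with YAP for TEAD, rose from 39.9 ± 1.31 to 52.6 ± 2.91 CPM (n = 5 each; 0.40 ± 0.05, adjusted p = 0.000548). Vgll3, a cofactor of mesenchymal cells, fell from 461 ± 46.0 to 357 ± 8.86 CPM (−0.37 ± 0.07, adjusted p = 0.00366). Both showed no overlap between groups and kept their calls in all 18 alternatives. In all 4 of the 9 tested factors rose and 3 fell, the former being Yap1, Wwtr1, Tead1 and Vgll4 and the latter Tead3, Tead4 and Vgll3. The median over the 9 was −0.17. Without WT 3 or without WWv 2 the fallers numbered 1. Vgll1 was at 0 counts in all libraries.

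The list of 22 YAP and TEAD target genes, of which 5 are genes described above, held 6 that rose and 0 that fell at the edgeR threshold. At an unadjusted p under 0.05, 11 were higher and 2 lower, a level not counted over all genes. DESeq2 called 9 and 1, beside 2293 and 2697 of all 15181 tested genes. Limma-voom called 7 and 1, beside 2012 and 2153. The list median was 0.26 beside −0.01 over all tested genes. Fjx1, a Golgi kinase that phosphorylates the Fat and Dachsous cadherins, stood at 5.70, 7.52, 7.76, 8.25 and 8.42 CPM in WT and at 14.6, 19.4, 22.7, 17.8 and 17.6 CPM in WWv. This was the largest change of the list, 2.45-fold without overlap (1.29 ± 0.13, adjusted p = 0.000311). Crim1, a transmembrane protein that binds BMPs, rose from 558 ± 54.9 to 772 ± 82.4 CPM (n = 5 each; 0.47 ± 0.09, adjusted p = 0.00384), with Fez2 overlapping it on the opposite strand. Asap1, an ARF GTPase-activating protein of focal adhesions, rose by 0.30 ± 0.07 (adjusted p = 0.0129), and with library size only it was 0.22 (adjusted p = 0.0612).

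Dock5, a guanine nucleotide exchange factor for Rac, rose from 56.1 ± 14.1 to 81.4 ± 9.63 CPM (0.54 ± 0.15, adjusted p = 0.0209), with WT 2 at 79.9 CPM within the WWv range. The Dock5 call was lost without WT 1 (0.48), WT 4 (0.47), WT 5 (0.49), WWv 2 (0.52) or WWv 3 (0.47). Leaving out WT 2 gave 0.70 (adjusted p = 0.000195). The count of targets that passed rested on WT 2. Without it 12 rose and 4 fell, and without WWv 1, 1 fell. Those that fell in that fit were Igfbp3, an insulin-like growth factor binding protein (−0.73), F3, the coagulation starter tissue factor (−0.51), the growth arrest gene Gadd45a (−0.42) and the RNA-binding protein gene Rbms3 (−0.18). With all libraries Igfbp3 was at −0.69 ± 0.24 (adjusted p = 0.0543). Over all 15423 genes tested in that fit 3507 rose and 3620 fell. The share of targets that fell was below that of all genes, but it rested on 4 genes and the difference was not tested. Called lower with library size only were 3 of the list.

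The CCN family, matricellular proteins with a shared domain order, had 1 called gene. Of 5 tested members Ccn2 rose and 0 fell at the edgeR threshold, where 12.8% of all tested genes rose and 15.4% fell, while DESeq2 called 2 higher and 1 lower, limma-voom called 1 and 0, and 2 and 1 had an unadjusted p under 0.05. Ccn4 stood at 163, 75.5, 165, 210 and 275 CPM in WT and at 172, 360, 364, 324 and 402 CPM in WWv (0.87 ± 0.31, adjusted p = 0.0562). Ccn3 stood at 337, 75.4, 296, 623 and 490 CPM in WT and at 41.3, 143, 119, 120 and 248 CPM in WWv (−1.44 ± 0.53, adjusted p = 0.0620). WT 2 lay at the lowest WT value for both, and WWv 1 lay at the lowest WWv value for both. Without WT 2 the family held 2 that rose and 1 that fell, and without WWv 1 it held 2 that rose. Without WT 3, WWv 2, WWv 3 or WWv 5 it held 0 that rose, and without WWv 5 it held 1 that fell.

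**Figure D4:**
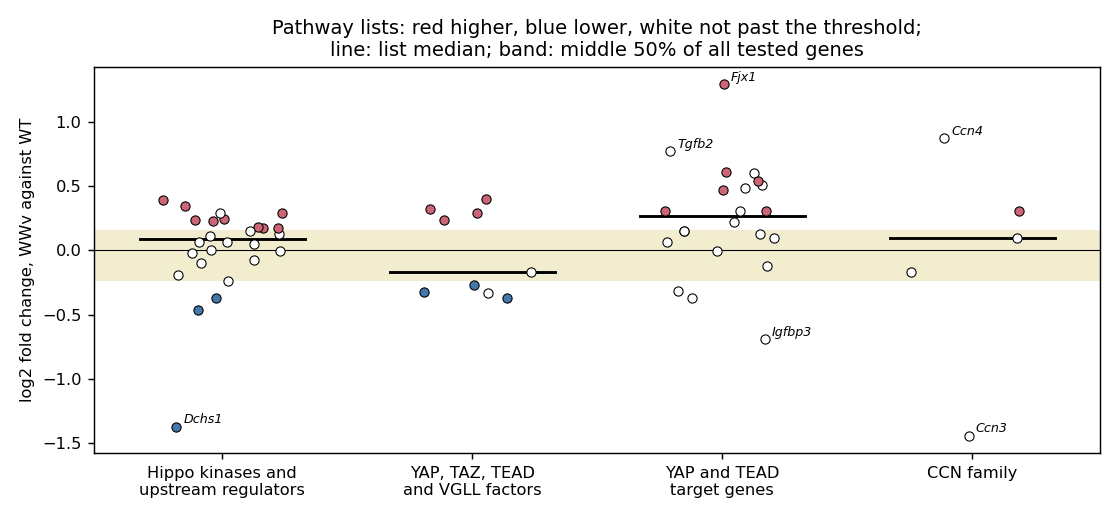
Log2 fold change (vertical axis) of every tested gene of the 4 lists, red where called higher, blue where called lower and white where the adjusted p is 0.05 or more, with list medians as lines and the middle 50% of all tested genes as a band. Dchs1 at −1.37 and Fjx1 at 1.29 are the farthest called genes, and the factor list holds genes called in both directions.

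Finally, the genes whose pattern over the 10 libraries was most like that of 5 of the genes were sought among 12572 genes with a mean of at least 1 CPM. Likeness was the root mean square distance between log2 CPM values (prior count 2), each gene centred on its own mean, so the group difference and the library differences both count. The fold changes and calls of the nearest genes therefore largely follow from how these genes were picked and are no separate result. Nearest to Ccn2, at 0.0313, was Thbs1, the matricellular thrombospondin 1, which rose from 21571 ± 2333 to 26788 ± 2260 CPM (n = 5 each; 0.31 ± 0.10, adjusted p = 0.0430). The spread of Ccn2 itself about its mean was 0.198 on this scale. Also near was the endoplasmic reticulum protein gene Wfs1 (0.0578). Nearest to Ccn1 were Cryab, a small heat shock protein (0.0527), Rhod, a small GTPase (0.0536), and Srp14, a signal recognition particle subunit (0.0610), beside a spread of Ccn1 of 0.111, and none of these passed the threshold. Nearest to Ankrd1 were Rassf3 (0.103), Disp1 (0.121) and Cmtm4 (0.128), beside a spread of Ankrd1 itself of 0.347. Distances of genes with unequal spread are not compared here. Nearest to Yap1 were Yaf2 (0.0320), Dnaja4 (0.0373) and Leprotl1 (0.0424), and nearest to Tead1 were Taf3 (0.0520) and Cbl, an E3 ubiquitin ligase that acts on receptor tyrosine kinases (0.0540). None of these nearest genes is on the 4 pathway lists.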

How the data were processed

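The submitters' processing notes name bcl2fastq 2.17, Trim Galore 0.4.3, STAR 2.5.2a and the mm10 build. The authors deposited raw counts per versioned Ensembl gene ID. No source used here names the counting tool, its strand setting or the annotation, so reads of genes that overlap on opposite strands could not be told apart. Symbols and exon lengths were taken from GENCODE M21 (GRCm38), which held 54409 of the 54446 IDs when versions were ignored. Start site sequences were from RefSeq (GRCm38.p6).

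The 2 groups were compared with the quasi-likelihood F test of edgeR 4.0.16 in R 4.3.3, two-sided, after TMM scaling and filterByExpr at a minimum count of 10. Benjamini-Hochberg adjustment ran over 15181 genes, with a threshold of 0.05. The SE of a log2 fold change is its size over the square root of F, and 95% intervals use the t distribution. On simulated data for this comparison (15024 genes), 70.2% of 1.5-fold, 89.6% of 2-fold and 98.5% of 4-fold changes were recovered, and 9 of 181 calls were false. The data gave 4274 calls. The simulation changed only 66 or 67 genes per size and held no library that deviated as WT 2 did. Its shares may therefore not hold for these data. No change below 1.5-fold was simulated, so these shares do not cover Yap1, Wwtr1, Tead1, Tead3, Lats1 and Ccn2, which changed 1.13- to 1.25-fold.

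The 18 alternatives were RLE scaling, library size only, no low-count filter, 1 CPM in 5 libraries, DESeq2 1.42.0, limma-voom (limma 3.58.1), a replicate block, leaving out each of the 10 libraries, and, added after seeing the data, leaving out WT 2 and WWv 1 together. The members and lists were chosen with earlier results of these data known. Named beside the 10 members were, by rule, up to 4 other called genes per list with the largest change and the 3 genes nearest in pattern to each of 5 members. Some of these nearest genes are not reported here. Stk3, Stk4, Sav1, Nf2, Mob1a, Mob1b, Tead2, Ccn3, Ccn4, Igfbp3, F3, Gadd45a and Rbms3 were chosen after their values were seen.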

Additional observations from a re-analysis of the deposited data

Results flagged for a closer look

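Gaps between 1 library and the rest of its group were examined for 21 genes in both groups, and chance flags about 1 in 20 groups. Of the 42 groups 2 were flagged, about as many as chance gives. Tead3 in WT 2, at 75.9 CPM, was far from the other WT libraries, with a gap of 0.876 of the group's whole range. Tead4 in WWv 2, at 5.48 CPM, was far from the other WWv libraries, with a gap of 0.757 of the range. Both TEAD values lie on the low side of their group.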

How the results depend on the processing

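Yap1, Tead1 and Ankrd1 kept their direction and call in all 18 alternatives. Calls were lost for Wwtr1 in 9 of them, Tead3 in 11, Lats1 in 5 and Ccn2 in 7, each in the same direction. Changes near 0 turned sign without passing the threshold: Lats2 was −0.023 with library size only, and Amotl2 was 0.018 without WT 1, 0.00011 without WT 5, 0.00024 without WWv 2, 0.0050 without WWv 4 and 0.0079 without WWv 5, within a range of −0.038 to 0.018 over the fits that leave out 1 library. Leaving out 1 library gave 3013 to 7127 calls over all genes (4274 with all), 1286 to 3507 higher and 1721 to 3620 lower. It gave 3 to 6 of the 10 genes higher and 0 to 1 lower, Hippo genes 6 to 13 higher and 2 to 5 lower, factors 1 to 3 lower, targets 4 to 12 higher and 0 to 4 lower, and CCN genes 0 to 2 higher and 0 to 1 lower. Without WT 2 and WWv 1 together there were 7111 calls, 3361 higher and 3750 lower, with 5 Hippo genes lower, 13 targets higher and 4 lower, and 2 CCN genes higher and 1 lower. With library size only, 983 genes were higher and 3599 lower, 3 of the 10 genes higher, Hippo genes 3 higher and 6 lower, 3 targets lower, and CCN genes 0 higher and 1 lower. Without a low-count filter 0 of the 10 genes were lower and 2 CCN genes higher. Limma-voom called 0 of the 10 genes and 1 target lower, DESeq2 called 1 target lower and CCN genes 2 higher and 1 lower, and the filter of 1 CPM in 5 libraries gave 1 target lower. The cause of these shifts was not tested.

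Same-numbered libraries did not clearly deviate together (r over genes from −0.092 to 0.308 in 5 pairs). Among all libraries only WT 5 correlated best with its own number. The highest correlation joined unlike numbers, WT 4 and WWv 5 (r = 0.469). Correlations over so few pairs cannot exclude a weak pairing, so whether the numbers pair the samples stays unknown. With the replicate block there were 3636 calls over all genes. Of the 10 genes 4 were higher and 0 lower, with 1 factor lower and 0 CCN genes higher.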
